A study of Mus musculus with 221 samples.

Results

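The subcortical maternal complex is a multiprotein assembly that lies beneath the membrane of the oocyte and early embryo. Its members were fixed by name as Nlrp5, Ooep, Tle6, Khdc3, Padi6, Nlrp2 and Zbed3, which makes 7 of the 55291 genes in the count table. All 7 passed the filter on low counts, as did 14820 genes in all. The question was how much transcript of each member an early 2-cell mouse embryo holds, how stable that amount is between embryos, whether the members rise and fall together, and whether any of this differs with the diet of the sire.

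Each library was made from a single embryo with the Smart-seq2 protocol, and embryos of sires on a high-fat diet (HFD) were compared with 99 embryos of sires on a low-fat diet (LFD). There were 23 more HFD than LFD embryos, and this n holds for every value given per diet. In both groups the nuclear genome was C57BL/6N and the mitochondrial genome was that of the Staudach (ST) line, which came from the oocyte donors. Fertilization was done in vitro, and the study's methods state that sperm of a male of each diet was thawed for each date, with new males on the next. All embryos of a diet came from a small number of males, and sire and date cannot be told apart within a diet. The labels gave a diet and an embryo number and neither sire, date, sex nor age, so the p-values treat embryos of the same sire as independent. Every n counts embryos, not sires, so the p-values can overstate the evidence for a diet difference.

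The members are oocyte products. Their RNA and protein are stored during oocyte growth, and the zygotic genome takes over only in the course of the 2-cell stage, when much maternal mRNA is degraded. Females that lack Nlrp5, Ooep, Tle6 or Padi6 ovulate oocytes whose embryos stop dividing at early cleavage. NLRP5, OOEP and TLE6 form the core of the complex. KHDC3 binds to that core and serves in keeping chromosome number stable. PADI6, a member of the peptidylarginine deiminase family, is needed for the cytoplasmic lattices, the fibrous stores of the egg. NLRP2 is an NLR protein related to NLRP5, and ZBED3 is a zinc-finger protein tied to symmetric division of the zygote.

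The bases upstream of the transcription start are shown for 3 members, because Zbed3 had by far the highest level, Tle6 differed between the diets and Padi6 was the abundant member least correlated with the others in LFD embryos. Capitals mark CANNTG, the E-box core that oocyte factors such as FIGLA bind, a motif that reads the same on both strands. Sequences are RefSeq's on build GRCm38.p6, and only bases outside the span of the gene in the count table are printed. Zbed3 is given from chr13:95323355-95323604 (plus strand), Tle6 from chr10:81601074-81601150 (minus strand) and Padi6 from chr4:140742644-140742893 (minus strand).
Zbed3: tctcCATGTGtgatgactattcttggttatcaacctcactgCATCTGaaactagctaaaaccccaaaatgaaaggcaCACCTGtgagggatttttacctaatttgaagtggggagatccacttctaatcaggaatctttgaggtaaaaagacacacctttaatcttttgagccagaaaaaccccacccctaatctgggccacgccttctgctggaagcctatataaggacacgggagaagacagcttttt
Tle6: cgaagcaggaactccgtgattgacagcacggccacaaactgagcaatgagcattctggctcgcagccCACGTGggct
Padi6: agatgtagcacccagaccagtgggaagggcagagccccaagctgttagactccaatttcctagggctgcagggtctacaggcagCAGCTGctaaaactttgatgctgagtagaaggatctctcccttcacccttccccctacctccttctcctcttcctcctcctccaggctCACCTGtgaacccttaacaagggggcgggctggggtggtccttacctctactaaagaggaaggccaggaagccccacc
The printed stretches hold CANNTG 3 times for Zbed3, 1 time for Tle6 and 2 times for Padi6. Over the 11 windows of 250 bases that RefSeq gives for the 7 members, 10 windows and 6 members had the motif, and the single window of Nlrp2 had none. That is a common match, since 66.2% of 32851 mouse promoter windows held it. The full window at the most upstream Tle6 start held the form CACGTG 2 times, a form found in 6.02% of all windows. A match of letters is a description and says nothing about binding in these embryos.

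Zbed3 was far above the rest of the complex. Its counts took 2.72% ± 0.936 (SD over embryos) of an HFD embryo's total and 3.29% ± 1.04 (SD, n = 99) of an LFD embryo's, and its mean CPM (the counts of a gene scaled to the same library total in every embryo) ranked 2 among all genes of the table. The other 6 members together held 0.0483% ± 0.0125 in HFD and 0.0535% ± 0.0143 in LFD embryos. In HFD embryos Zbed3 ran from 3868 to 49564 CPM with a median of 27089, and in LFD embryos from 5395 to 54960 CPM with a median of 33790. The ranges of the diets overlapped over almost their whole width.

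Levels of different genes were compared per length, as counts per exon base scaled to a sum of 1000000 in each embryo. On this scale the order over all embryos was Zbed3, Padi6, Tle6, Nlrp5, Ooep, Nlrp2 and Khdc3. The median per-length level was 33473 for Zbed3, or 296 times that of Padi6, and Zbed3 was above Padi6 in every embryo. Padi6 had a median of 104.7 in HFD and 123.9 in LFD embryos. Over both diets Tle6 followed at 100.1, Nlrp5 at 72.9 and Ooep at 63.5. Taken over all embryos, these neighbours were not separated beyond their spread. The log2 difference within an embryo was 0.17 ± 0.61 (SD over all embryos) between Padi6 and Tle6, 0.34 ± 0.62 between Tle6 and Nlrp5 and 0.19 ± 0.88 between Nlrp5 and Ooep. By diet, Tle6 was above Nlrp5 in 71.3% of HFD embryos (0.21 ± 0.69) and in 87.9% of LFD embryos (0.49 ± 0.48). Nlrp2 stood lower, at a median of 30.3 per length, and was below Ooep in 90.5% of embryos.

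Khdc3 had the lowest level, with a median of 4.81 per length and 22 counts per embryo. Its value is a lower estimate of uncertain size. Of its 2050 exon bases (chr9:73101836-73104438, plus strand), 790 or 38.5% also belong to Gm20509 on the same strand, and reads that fall in 2 genes were left out by the counting program. Gm20509 itself was listed at 0 in every embryo. For Nlrp2 (chr7:5298547-5351035, minus strand), 2.99% of the exon bases overlap Gm18757 on the opposite strand, which had a mean of 2.07 counts per embryo. The exons of the other 5 members are shared with no other gene of the annotation.

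**Figure D1:**
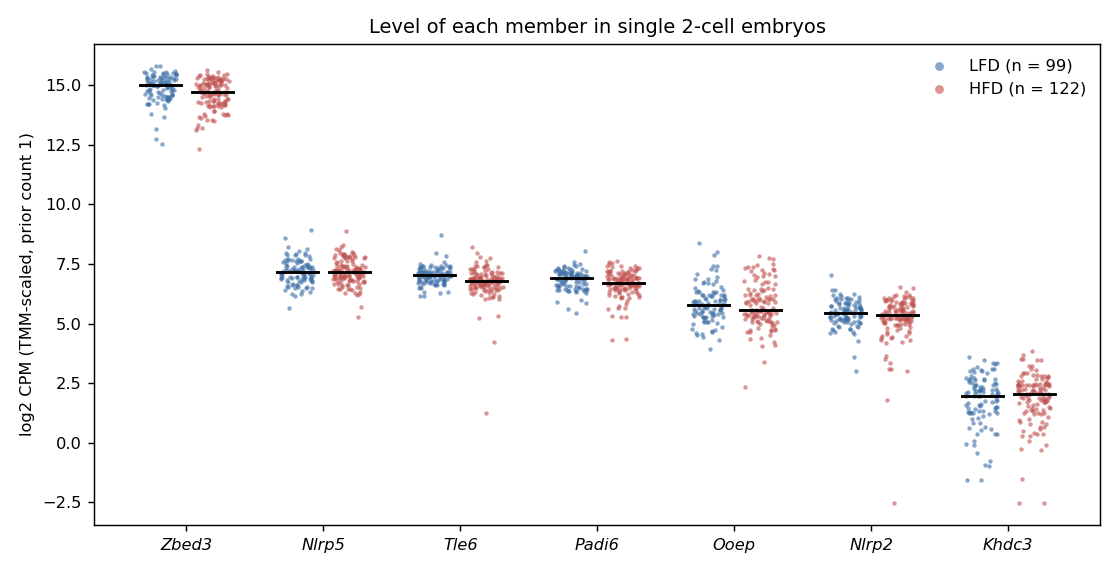
Level of each member in every embryo as log2 CPM (vertical axis, TMM-scaled with a prior count of 1), with 1 point per embryo, blue for LFD (n = 99) and red for HFD, and black lines at the medians. Zbed3 sits near 15, Nlrp5, Tle6 and Padi6 near 7, and Khdc3 near 2, and single HFD embryos lie far below the others for Tle6 and Nlrp2.

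The spread between embryos differed among the members. The standard deviation (SD) of log2 CPM within a diet was 0.50 for Padi6, 0.54 for Nlrp5, 0.58 for Tle6 and 0.60 for Zbed3, against a median of 1.05 over all genes tested. Nlrp2 at 0.86 and Ooep at 0.88 were wider, and Khdc3 at 1.09 was close to the median gene. Spread falls with level, so each member was also compared with genes within 0.5 log2 CPM of its level. Of these a share of 64.3% had a lower SD than Nlrp5, 68.3% than Tle6, 71.9% than Nlrp2 and 83.8% than Ooep. For Padi6 the share was 44.6% and for Khdc3 11.7%, and no gene lay that close to Zbed3. Each member was further set against the dispersion that edgeR's trend gives for genes of its level. Padi6 had 0.68 of the trend, Tle6 0.76, Nlrp2 0.90, Nlrp5 1.0 and Zbed3 1.28, while the ratio of the median gene was 0.88. Ooep had 1.98 times the trend, a ratio above that of 94.1% of genes, and Khdc3 had 0.42.

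Ooep varied widely in both diets. It ran from 2.34 over a median of 5.58 to 7.85 log2 CPM in HFD embryos and from 3.93 over 5.79 to 8.40 in LFD embryos. The corresponding interquartile ranges were 1.14 and 0.91, against 0.49 and 0.41 for Tle6. Ooep encodes a KH-domain protein of the core. Among the core members its RNA was the least even between embryos.

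The diet comparison called 1 of the 7 members. Tle6, whose product is a Groucho-type scaffold of the core, was lower in HFD embryos. It ran from 1.22 over a median of 6.79 to 8.23 log2 CPM in HFD embryos and from 6.15 over 7.02 to 8.71 in LFD embryos. The bulk of the groups overlapped, 73.8% of HFD embryos lay below the LFD median, and 9 HFD embryos lay below the lowest LFD embryo. That last count was not made over all genes. The log2 fold change of Tle6, HFD over LFD, was -0.23 (SE 0.07), which is a change of -14.5% with a 95% interval from -21.9% to -6.33% (edgeR quasi-likelihood test, Benjamini-Hochberg adjusted p, or false discovery rate, FDR = 0.0444). Of all genes tested 0.891% were called lower in HFD embryos, and 2.15% were called in either direction.

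Zbed3 had a log2 fold change of the same size as Tle6 but did not pass. Its value was -0.23 (SE 0.08), or -14.6% with a 95% interval from -22.9% to -5.47% (edgeR, FDR = 0.0842), and 64.8% of HFD embryos lay below the LFD median. With DESeq2 the FDR of Zbed3 was 0.0347. Of 13 alternative fits, DESeq2 among them, 7 called Zbed3 and all 13 gave it a negative value. Padi6 had -0.16 (SE 0.06) at an FDR of 0.198 and Nlrp2 had -0.12 (SE 0.09) at 0.611. Over all embryos Nlrp5, Ooep and Khdc3 had values near 0. Their intervals ran from -9.92% to 10.1% for Nlrp5, from -16.5% to 15.6% for Ooep and from -13.5% to 27% for Khdc3. In all, 6 of 7 members had a negative value and their median was -0.12, beside 0.01 over all genes tested.

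**Figure D2:**
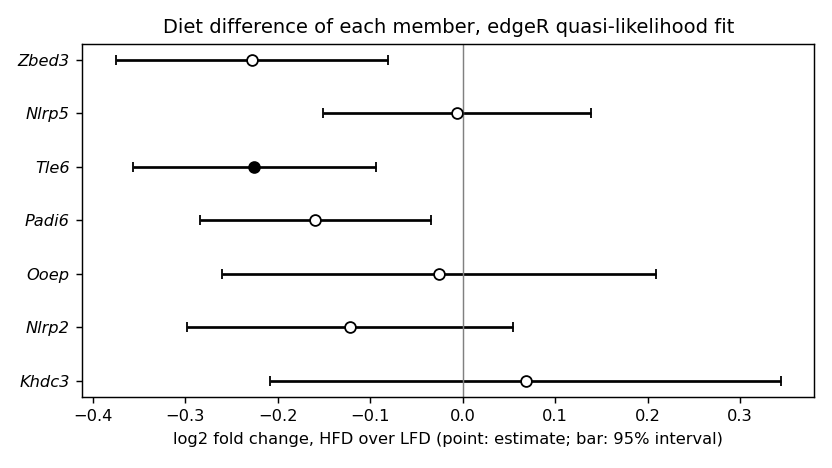
Log2 fold change of each member, HFD over LFD, from the edgeR fit (horizontal axis, point with a bar for the 95% interval); the filled point is called at an FDR of 0.05. Of the 7 points only Tle6, at -0.23, is filled, Zbed3 lies at the same value with an open point, and Nlrp5 lies at -0.01 and Ooep at -0.03.

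The Tle6 fold change kept its sign in 13 of 13 alternative fits, from -0.34 to -0.21, and was called in 10 of them. The call was lost in the other 3. Without the 12 embryos with the highest summed level of macrophage markers, all of them HFD, its log2 fold change was -0.21 at an FDR of 0.107. Without the 77 embryos numbered 31 to 70 it was -0.24 at an FDR of 0.215. With ranges of 10 numbers within each diet as a random effect (limma-voom) it was -0.28 at an FDR of 0.106, whereas with ranges shared by both diets it was -0.28 at an FDR of 0.0103. Without the 12 embryos with the fewest detected genes, at most 15715, it was -0.22 at an FDR of 0.0205. Of the 9 HFD embryos below the LFD range, 5 were numbered 31 to 70, 2 were among those with the fewest genes and 2 among those with the highest macrophage level.

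Embryo numbers may follow the order of collection, which the labels do not say, so the diets were also compared within ranges of 10 numbers that hold both. The mean of Tle6 was lower in HFD embryos in 11 of 11 ranges, by 0.13 to 0.96 on the log2 scale, whereas 0.236% of all genes tested were lower in every range. The largest gap was that of numbers 41 to 50, which hold HFD embryo 48, where Tle6 had 8 counts of 4361381. Without that embryo the difference of the overall means was -0.24 in place of -0.29.

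Zbed3 went the other way in the early numbers. Its mean was higher in HFD embryos by 0.24 for numbers 1 to 10, by 0.20 for 11 to 20 and by 0.31 for 21 to 30, and lower in the other 8 ranges, by up to 0.77 for numbers 81 to 90. Without numbers 31 to 70 its log2 fold change was -0.09 (edgeR, FDR = 0.945). Padi6 was lower in 8 of 11 ranges and its fold change without those numbers was -0.07 (FDR = 0.942). For Zbed3 and Padi6 the value therefore moved by over 1.5 times with these embryos, which was not so for Tle6. Ooep, whose value over all embryos was near 0, changed sign between the same ranges as Zbed3. Its mean was higher in HFD embryos by 0.60 for numbers 1 to 10, by 0.68 for 11 to 20 and by 0.53 for 21 to 30. In the other 8 ranges it was lower, with differences from -0.79 to -0.15.

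**Figure D3:**
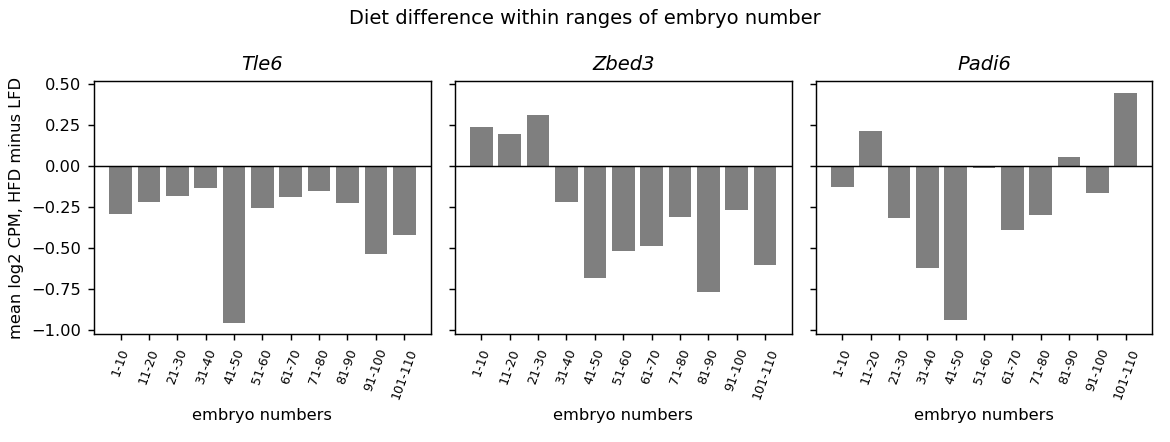
Difference of the mean log2 CPM, HFD minus LFD, within each range of 10 embryo numbers for Tle6, Zbed3 and Padi6 (bars from 0). Tle6 is below 0 in 11 of 11 ranges, Zbed3 is above 0 in the first 3 and below it in the other 8, and Padi6 changes sign.

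Low values were shared between members in a few HFD embryos. Over the 7 members, 14 HFD embryos had at least 1 member below the LFD range, of which 8 had 1, 4 had 2, 1 had 3 and 1 had 4. HFD embryo 28 was below it for Nlrp5, Tle6, Padi6 and Zbed3, with 19.4% of its counts from mitochondrial genes. HFD embryo 64 was below it for Ooep, Padi6 and Nlrp2, with 12918 genes detected. HFD embryo 42 was below it for Tle6 and Khdc3, with 11415 genes detected and 18.1% mitochondrial counts. HFD embryo 48 was below it for Tle6 and Padi6, with 12015 genes detected. There were 23 more HFD than LFD embryos, and counts of embryos below the LFD range were not made over all genes. In embryo 64 Nlrp2 had 0 of 2626218 counts, which allows a level of up to 1.14 CPM by counting error alone. Khdc3 had 0 counts in HFD embryos 41 and 42. Embryos 41, 44 and 24 had macrophage-marker levels of 12.5, 12.2 and 11.1 log2 summed CPM, above the LFD maximum of 7.18, and the part of that RNA in their low members was not tested.

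Other cell types left a varied trace. The summed macrophage markers, of which 8 of 13 genes had a median above 0, had a level between 3.83 and 12.6 log2 summed CPM in HFD embryos and between 5.43 and 7.18 in LFD embryos, and of the 6 tested genes Apoe, Mmp12, Cd68 and Spp1 were called higher in HFD with edgeR, where DESeq2 called 3 and limma-voom 0 of the 6 (1 at an unadjusted p under 0.05). Their part in the member values was not tested beyond leaving out the 12 highest embryos. Cumulus and granulosa markers reached at most 6.90 in HFD and 6.31 in LFD embryos and sperm transcripts 4.37 and 2.74, and the median was 0 for 5 of the 7 sperm genes in each diet. All 14 oocyte-specific and all 24 2-cell-stage transcripts had a median above 0 in both diets.

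The spread between embryos was compared between the diets as well, and the test called none of the members. Tle6 had an SD of 0.71 in HFD and 0.37 in LFD embryos, Nlrp2 of 1.03 and 0.57, and Padi6 of 0.56 and 0.42, while Nlrp5 had 0.55 and 0.54. A limma test of absolute deviations from the diet median called 0 of 7 members, and 0 of 7 were under an unadjusted p of 0.05. The mean absolute deviation of Nlrp2 was 0.59 in HFD and 0.42 in LFD embryos (FDR = 0.638), and that of Tle6 was 0.39 and 0.27 (FDR = 0.648). Few genes passed this test at all, since 0.0472% were called wider in HFD embryos. The deviation was larger in HFD embryos for 6 of 7 members, as it was for 10667 of 14820 genes.

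Levels of the members were correlated across embryos, and more so than those of the median gene pair. Across HFD embryos the median Pearson r of log2 CPM over the 21 member pairs was 0.281, and across LFD embryos it was 0.247. Over 38294376 pairs of the 8752 genes at 3 log2 CPM or more the median r was 0.0227 for HFD and 0.0154 for LFD. A value over 0.3 was found in 9 of 21 member pairs in HFD and 8 of 21 in LFD embryos, beside 12.9% of all such pairs in either diet. The points share library, depth and base composition, so these values are a description.

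The core members and Zbed3 held the closest pairs. In HFD embryos Zbed3 had r = 0.522 with Ooep (Spearman rho 0.633) and 0.489 with Nlrp5 (rho 0.439). In LFD embryos the highest values were those of Tle6 with Ooep at 0.524 (rho 0.422) and of Tle6 with Nlrp5 at 0.475 (rho 0.360). With the 2 embryos most distant from the median level of 1 gene of the pair left out, r was 0.528, 0.418, 0.506 and 0.419 for these 4 pairs.

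Padi6 had low correlations with the other members in LFD embryos. Its Pearson r was higher in HFD embryos, but its rank correlations there were low, from -0.08 with Nlrp5 to 0.19 with Zbed3. In LFD embryos its r with the other members ran from -0.13 to 0.07, and none was over 0.3. In HFD embryos it had r = 0.429 with Tle6, but the rank correlation was 0.126 and r without the 2 farthest embryos was 0.157, so that value rests on those embryos. Its r in HFD embryos was 0.304 with Nlrp2 (rho -0.01, and r 0.141 without the 2 farthest embryos), 0.281 with Zbed3, 0.224 with Ooep and -0.02 with Nlrp5. The median r of Padi6 over the members was 0.253. Khdc3, the least abundant member, had no r over 0.3 in either diet, with a highest value of 0.289 with Nlrp5 in LFD embryos. With so few counts a weak correlation of Khdc3 is no finding. Whether r differs between the diets was not tested.

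**Figure D4:**
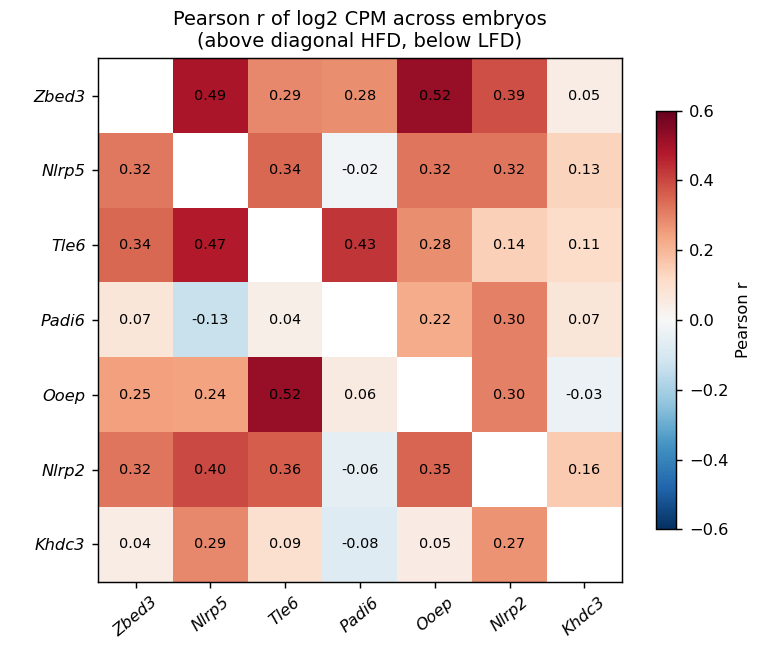
Pearson r of log2 CPM for each pair of members, across HFD embryos above the diagonal and LFD embryos below it, coloured from blue at -0.6 to red at 0.6. The reddest cells are Ooep with Zbed3 in HFD (0.52) and Ooep with Tle6 in LFD (0.52), and the Padi6 row is near 0 in LFD.

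The correlation between members in HFD embryos was lower once detected genes were taken into account. After the number of detected genes was regressed out, the median r of the pairs was 0.156 in HFD and 0.272 in LFD embryos. Without the 12 embryos with the fewest genes it was 0.208 and 0.281. The mean standardized level of the members had r = 0.573 with the number of detected genes in HFD and 0.165 in LFD embryos. With the mitochondrial share of the counts it had r = -0.61 in HFD and -0.42 in LFD embryos. The median of that share was 5.61% in HFD embryos, against 4.38% in LFD. Mitochondrial counts are part of the total that CPM divides by, and their part in these correlations was not tested. The mean share of the members was 2.77% of all counts and 2.93% of nuclear counts in HFD embryos. In LFD embryos it was 3.34% and 3.49%.

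The genes whose level was most like the mean standardized level of the members were Eef2k, Nlrp14, Ppme1, Dcaf8, Arf1, Uba1, Mtmr14 and Itsn2, among 8746 genes and across all embryos of both diets. Eef2k, a kinase that slows translation elongation, had r = 0.780. Nlrp14, an oocyte NLR gene, had 0.773, and Ppme1, which encodes a methylesterase of protein phosphatase, had 0.764. The other 5 lay between 0.717 and 0.747. Of the members at 3 log2 CPM or more, Zbed3 had the highest r with the same mean, 0.674, although that mean includes it. All of these genes outside the complex were closer to the mean than any such member. They were picked as the highest of 8746, so that lead follows in part from the choice. At the other end stood Map1lc3b, which encodes an autophagosome protein, with -0.75, Crxos with -0.73, Polr1c with -0.72 and the ribosomal protein gene Rpl28 with -0.71. Crxos lies opposite Crx and the library holds no strand information, so reads of the pair cannot be told apart.

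Partners of the complex and other maternal genes were taken from fixed lists. Among 11 genes of lattice and complex partners 0 were called by diet, where 11 edgeR fold changes ran from -0.19 to 0.09 around a median of 0.05. At an unadjusted p under 0.05 there was 1 of these 11 genes in edgeR, and DESeq2 and limma-voom also called 0 (2 and 3 unadjusted). Nlrp4f, which encodes a partner of the complex, had 0.05 (SE 0.11), Nlrp14 -0.11 (SE 0.11), Uhrf1, a regulator of DNA methylation, -0.17 (SE 0.09) and Dppa3, which protects the maternal genome in the zygote, 0.09 (SE 0.07). Among 15 other maternal-effect genes 1 was called, Zfp36l2, an RNA-binding decay factor, with -0.52 (SE 0.14, edgeR FDR = 0.022), which DESeq2 also called and limma-voom did not. At an unadjusted p under 0.05 there were 6 of these 15 genes in edgeR and 5 each in DESeq2 and limma-voom, beside 1938 of 14820 genes in edgeR. Zar1, which stores maternal mRNA, had -0.34 (SE 0.11, edgeR FDR = 0.0842) and was called by DESeq2 and by limma-voom. Npm2, a histone chaperone of the egg, had -0.09 (SE 0.08). Of 14 oocyte-specific transcripts 0 were called in edgeR, DESeq2 or limma-voom, and 0 were under an unadjusted p of 0.05 in any of them.

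Of the transcription factors that act upstream of oocyte genes, Figla did not pass the filter on low counts, with a median of 0.423 CPM in HFD and 0.394 in LFD embryos and 0 counts in 44 HFD and 30 LFD embryos. Nobox had a median of 100.8 CPM in HFD and 102.4 in LFD embryos and a log2 fold change of 0.01 (SE 0.09). Of the 6 factors tested 0 were called in edgeR, DESeq2 or limma-voom, each with 1 under an unadjusted p of 0.05. The likeness of the partners to the members had a median r of 0.396 over 11 genes and that of the oocyte-specific transcripts 0.467 over 13 ranked genes, beside 0.105 over all 8746 genes.

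The mean log2 CPM of 24 transcripts of the 2-cell stage was taken in each embryo. Whether it follows the progress of genome activation was not tested. It was lowest in HFD embryo 28 among HFD embryos, at 4.06, with 19.4% mitochondrial counts. Among LFD embryos it was lowest in embryo 33, at 4.51, with 11364 genes detected. Each member was fitted against this 2-cell-transcript level with diet as a covariate. Zbed3 rose most, by 0.63 log2 units per unit of that level (SE 0.07, edgeR FDR = 1.39e-14). Ooep rose by 0.41 (SE 0.11, FDR = 0.000895), Padi6 by 0.23 (SE 0.07, FDR = 0.00313) and Tle6 by 0.19 (SE 0.07, FDR = 0.0194). These 4 of 7 compare with 18.4% of all genes called with a positive slope. A positive slope was also called for 12 of 14 oocyte-specific transcripts and 8 of 11 partner genes. A negative slope was called for 1 of these 14 and 2 of these 11, and for 3465 of all 14796 genes fitted. Nlrp5 had 0.13 (SE 0.08, FDR = 0.167), Nlrp2 0.12 (SE 0.10, FDR = 0.349) and Khdc3 -0.24 (SE 0.16, FDR = 0.205).

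Fitted within a diet, the Zbed3 slope was 0.63 for HFD and 0.63 for LFD, and it was 0.57 with the number of detected genes as a covariate. The Tle6 and Padi6 slopes lost their call with that covariate, at 0.15 (FDR = 0.0961) and 0.14 (FDR = 0.0836). The Tle6 slope was called in 1 of 6 alternative fits, limma-voom, and its FDR was 0.133 in HFD embryos, 0.143 in LFD embryos, 0.0647 with RLE size factors and 0.0905 without the 12 embryos with the fewest genes. Padi6 was also not called without those 12 embryos (0.13, FDR = 0.0978). The slope of Padi6 was 0.30 (FDR = 0.00627) in HFD embryos and 0.10 (FDR = 0.504) in LFD embryos, but a test of the difference between the diets gave 0.20 (SE 0.14, FDR = 0.833). Of the 7 members 0 had a slope that differed between the diets in edgeR and 0 in limma-voom, and 0 were under an unadjusted p of 0.05 in both, while 0.0473% of all genes were called. For Zbed3 that difference was 0.00 (SE 0.14).

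**Figure D5:**
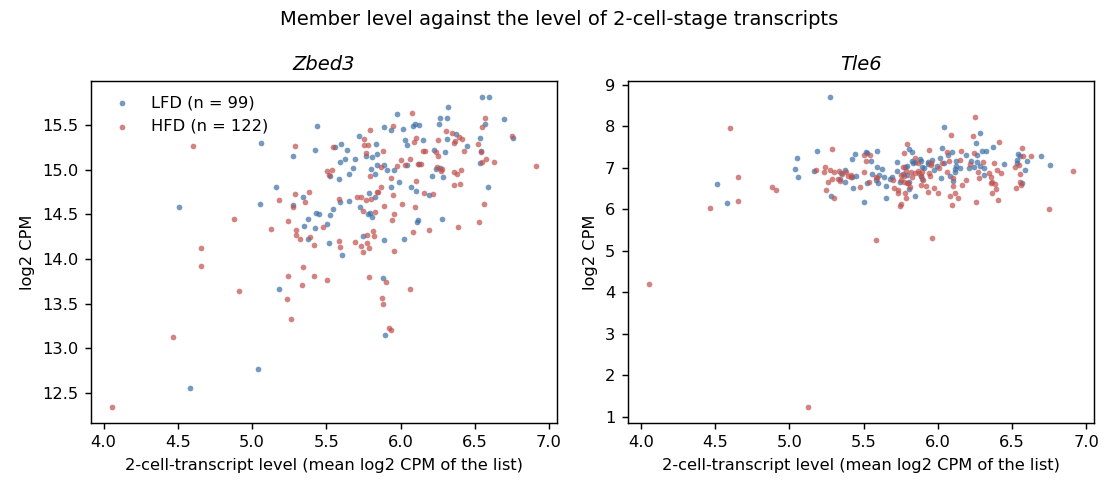
Level of Zbed3 (left) and Tle6 (right) in log2 CPM against the mean log2 CPM of 24 transcripts of the 2-cell stage, with 1 point per embryo, blue for LFD and red for HFD. Zbed3 rises with that level in both diets (r = 0.568 in HFD and 0.541 in LFD embryos), and Tle6 has a shallower slope with a few HFD embryos far below the rest.

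The number of detected genes moved with the same 4 members. Per 1000 more genes detected, Zbed3 rose by 0.11 (SE 0.02, edgeR FDR = 9.96e-05), Padi6 by 0.11 (SE 0.02, FDR = 8.14e-06), Ooep by 0.11 (SE 0.04, FDR = 0.0196) and Tle6 by 0.06 (SE 0.02, FDR = 0.026), where 19.8% of all genes were called with a positive slope. Nlrp5, Nlrp2 and Khdc3 were not called. In LFD embryos alone 0 of 7 members were called in edgeR (1 of 7 under an unadjusted p of 0.05), with slopes of 0.09 for Zbed3, 0.04 for Padi6, 0.00 for Ooep and 0.00 for Tle6, while in HFD embryos alone 4 of 7 were called. Of all 14820 genes, the fit within HFD called 4319 in either direction and the fit within LFD called 3133. Whether the slopes of the members differ between the diets was not tested.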

How the data were processed

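Single-embryo libraries of 122 HFD and 99 LFD embryos were grouped by the diet in the labels. Total counts per library lay between 2296020 and 13155271 (HFD) or 1937251 and 17246791 (LFD). The authors deposited unnormalized counts for each gene, made with Trim Galore 0.6.6, STAR 2.7.10a (GRCm38 with the Staudach mitochondrial sequence) and featureCounts 2.0.3 over Ensembl 102 exons, with strand setting 2 and multi-gene reads left out. Smart-seq2 holds no strand information, so that setting drops part of the reads. Reads have no molecular identifiers, so limits from counts cover counting error alone.

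From there, edgeR 4.0.16 in R 4.3.3 was used (filterByExpr by diet, TMM, quasi-likelihood test) with FDR 0.05 over all genes tested. SEs were derived from the fold change and F. Spread was tested with limma 3.58.1 on absolute deviations of log2 CPM. DESeq2 1.42.0 and limma-voom were alternatives, and each step was tested on simulated data. Named genes were all members, up to 3 called genes of each list, a fixed set of 8, and the 8 most and 4 least alike genes. Spp1 was named after its values were seen. The members and lists were chosen with earlier results of these data known.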

Additional observations from a re-analysis of the deposited data

How the results depend on the processing

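The number of genes called by diet was 318. It was 532 without the 5% of embryos with the fewest genes, 193 without the 5% with the highest macrophage level, 54 without numbers 31 to 70, 86 with number ranges of each diet as a random effect (added after seeing the data) and 7030 of 45512 genes without the filter, of which 726 were among the 14820 tested otherwise. With the embryo number as a replicate block it was 507, Tle6 had -0.34 (FDR = 0.00391), and Padi6 (-0.24, FDR = 0.0424) and Zbed3 (-0.34, FDR = 0.0118) were then called as well. The numbers do not pair the embryos: deviations of same-numbered embryos had a median r of 0.00555 over 94 numbers, with 17 over 0.1, and 0 of 94 HFD embryos were closest to the LFD embryo of their number. Genes with wider spread in a diet were 7, and 23 without the few-gene embryos. Slopes on the 2-cell level were called for 6189 genes and for 2636 in LFD embryos alone, and slopes on detected genes for 5558, for 3133 in LFD embryos alone and for 9076 with limma-voom. The slope differed between the diets for 7 genes in edgeR, and for 0 without the few-gene embryos (887 at an unadjusted p under 0.05) and 0 with limma-voom (972). The median pair r in HFD embryos was 0.281, and 0.156 on residuals. Over the members, 169 of 203 alternative values kept their direction and side of the threshold, 15 lost the call, 9 gained it and 10 changed sign, none of them called. The diet value of Ooep was 0.067 without numbers 31 to 70, 0.018 without the few-gene embryos and 0.023 without the macrophage-high embryos, where that of Nlrp5 was 0.032. The Nlrp5 spread difference was -0.00043 without TMM, -0.0031 without the filter and -0.00097 without the few-gene embryos. Slopes on detected genes were 0.026 for Nlrp5 in HFD embryos, and -0.013 for Khdc3 and -0.031 for Nlrp2 in LFD embryos. The causes were not tested. Depth limits Khdc3 most, at a median of 22 counts.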
